A study of Sus scrofa with 6 samples.

Results

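The RNA levels of 36 cell adhesion receptor genes, 19 integrins, 12 cadherins and 5 protocadherins, are described here in porcine bone marrow stromal cultures. They are the genes of these families that the platform annotation names alone on a probe set, with the integrin gene ITGAM and integrin-binding protein genes set aside. They were measured by 42 of 27558 probe sets and stand among 10872 named genes. The members were chosen by gene name, but with earlier results of these data known. Of the 36, 5 had more than one probe set and are represented by the one with the highest mean level.

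The study compared mesenchymal stem cells grown from mandibular symphysis marrow, taken at the front midline of the jaw, with those grown from tibial marrow. Each site gave 3 cultures at passage 0, harvested at 80% confluence, from female American Yorkshire pigs aged 4 months. Per the design text, 3 pigs gave marrow of both kinds, but the labels do not say which sample came from which pig, so the samples were treated as unpaired and arrays from the same pig were counted as independent. Unfractionated marrow was plated on plastic, so other adherent cells could remain, and in such bulk RNA fewer cells of a type and less RNA per cell cannot be told apart.

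Integrins are receptors of paired alpha and beta chains that link extracellular matrix, or ligands on other cells, to the actin cytoskeleton. The alpha chain largely sets the ligand, and the beta 1 chain pairs with the most alpha chains. Cadherins are calcium-dependent receptors that bind cells to each other, with catenins joining the classical kinds to actin. Protocadherins are a larger cadherin branch studied mostly in neural tissue. In marrow stroma these receptors hold cells to collagen and fibronectin and to each other, and CDH11 is known as the mesenchymal, or osteoblast, cadherin.

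Values are log2 levels after RMA (the authors' background correction, normalisation between arrays and summary per probe set), so 1 unit is a 2-fold difference. Levels are relative and are compared between arrays only, never between genes. Array medians lay between 5.63 and 5.71. A level under the lower quartiles of the arrays, 3.855 to 3.941, was treated as not separable from background. That line is a convention, as no detection call was used here. Differences are mandibular minus tibial, with limma's standard error (SE), two-sided p and Benjamini-Hochberg adjustment over all 27558 probe sets. With 6 arrays, their number limits the precision.

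Before the results, 2 arrays must be named that go against their labels. The mean level of 8 measured genes of craniofacial mesenchyme was 6.88, 5.22 and 6.65 on mandibular 1, 2 and 3, against 5.23, 5.06 and 6.74 on tibial 1, 2 and 3. For 10 trunk and limb HOX genes it was 4.82, 6.02 and 4.73 on the mandibular arrays, against 6.03, 6.0 and 4.96 on the tibial arrays. By the mean of both lists the array labelled mandibular 2 lay beside tibial 1 and 2, and the array labelled tibial 3 beside mandibular 1 and 3. Not every listed gene did so. ALX4, LHX6, HOXB5 and HOXB6 spanned at most 0.62 log2 units over the arrays. BARX1, of the craniofacial list, ran opposite to its list mean. It measured 5.91, 7.45 and 5.80 on the mandibular arrays, against 6.37, 6.63 and 5.65 on the tibial arrays, highest on mandibular 2 and lowest on tibial 3. HOXB7 was higher on every mandibular array, at 3.72 to 3.99, against 3.43 to 3.53 on the tibial arrays. The labels were kept, and the difference without both arrays (the 4-array fit) is given beside a named gene's difference where it turned or moved by over 1.5 times. For stromal markers, the mean of 11 measured genes was at least 9.65 on each mandibular array and at least 9.84 on each tibial array. Its genes differed in level, from COL1A1 at 13.24 to 13.49 to CXCL12 at 4.14 to 5.06, so the mean does not show that each was present.

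None of the 36 adhesion genes passed the adjusted threshold of 0.05 between the labelled sites. In limma the adjusted p was 0.9995 for each, and 0.0% of all 27558 probe sets passed. At an unadjusted p under 0.05 there were 3 members with higher mandibular levels, ITGA3, ITGA10 and CDH17, where 1.05% of named genes met that rule, and 0 with lower levels, where 1.5% did. Over all probe sets 3.03% met it in either direction. The count of 3 was 0 without mandibular 3 or without tibial 2, and 1 without mandibular 1. Shares over named genes were not computed for these omissions, so their counts are not read as results. The values of the sites did not overlap for ITGAE and CDH17, both higher in mandibular cultures (3.12% of named genes), and for 0 members lower in them (3.31%). These counts leave out ITGAM, an integrin alpha chain set aside from the members, which was lower in mandibular cultures without overlap. Its difference was -0.33 (SE 0.12), with an unadjusted p of 0.0324 in limma (adjusted p = 0.9995).

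The receptors varied among the arrays even where the sites overlapped. Levels spanned 1 log2 unit or more for 13 of 36 members, or 36.1%, and for 14.9% of named genes. Among features not under the lower quartile on every array these shares were 48.1% of 27 members and 16.4% of 9740 named genes. Of the 13 members, 6 had their highest level on tibial 1 and 4 on mandibular 3, where 30.9% and 19.5% of the 1623 named genes with such a range had theirs. The shares are descriptions, and the families were not tested as sets.

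**Figure D1:**
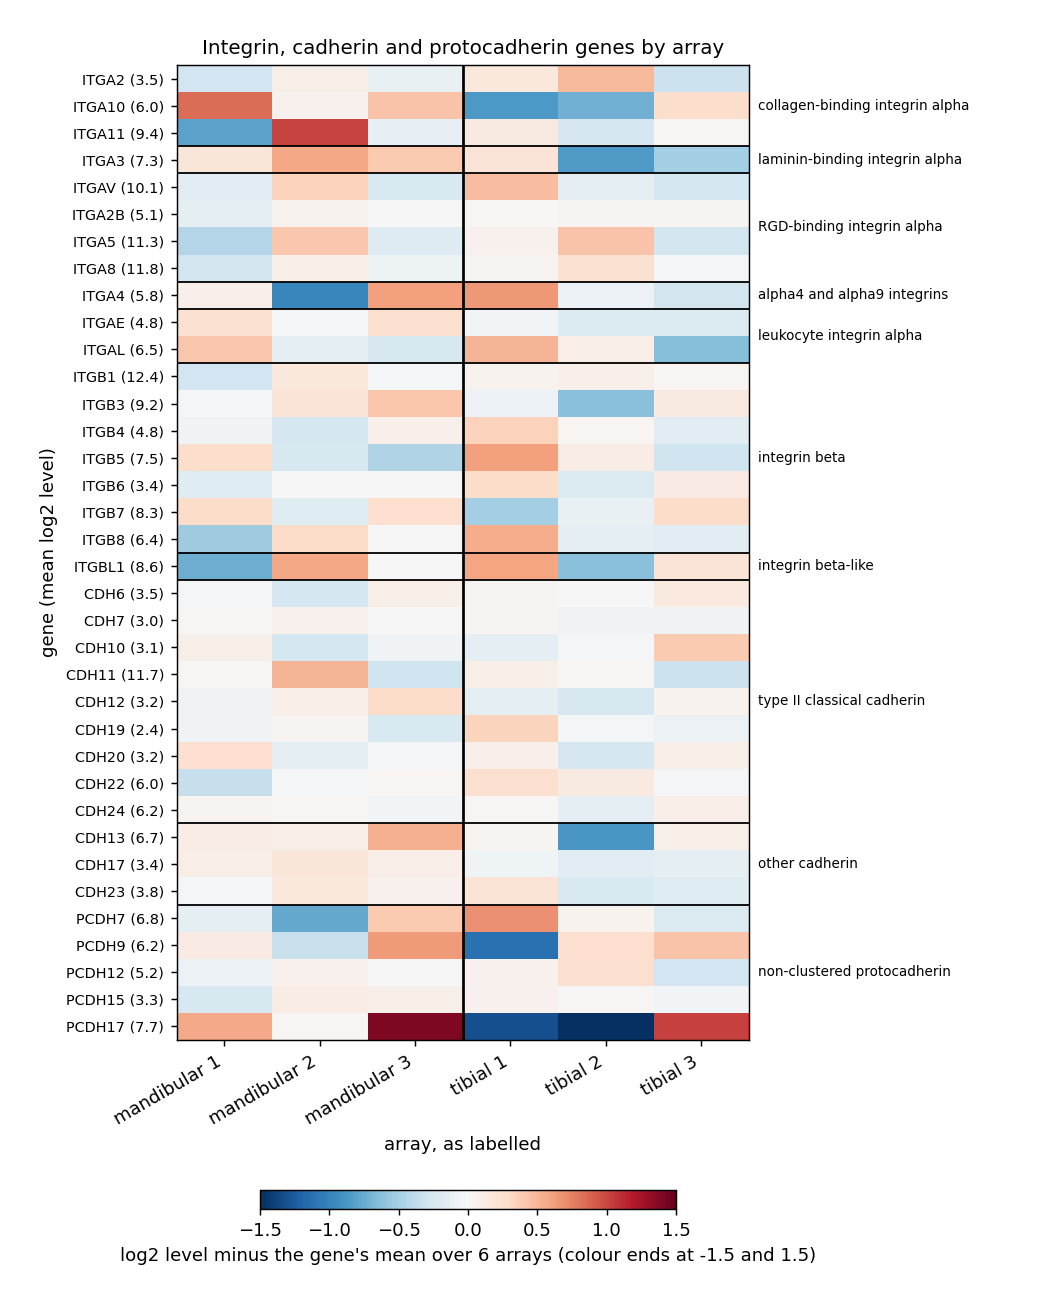
Log2 level of each of the 36 genes (rows, by role, with the mean level in brackets) on each array (columns, mandibular left of the line and tibial right), as the departure from the gene's mean over the 6 arrays. PCDH17 has the widest spread, 3.08 log2 units, while most type II cadherins stay near their mean.

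Among the collagen-binding alpha chains, ITGA10 had the clearest lean towards mandibular cultures. ITGA10, the alpha 10 chain best known from cartilage, measured 6.82, 6.05 and 6.41 on the mandibular arrays, against 5.12, 5.26 and 6.25 on the tibial arrays. Tibial 1 and 2 were the low arrays, and tibial 3 lay inside the mandibular range, so the groups overlapped. The difference was 0.88 (SE 0.34), or 1.84-fold, with an unadjusted p of 0.0372 in limma (adjusted p = 0.9995). In single omissions it ranged from 0.67 to 1.24. Without mandibular 2 and tibial 3 it was 1.42 (SE 0.21), with an adjusted p of 0.0634 in limma.

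ITGA11, the alpha 11 chain of fibroblasts that binds fibrillar collagen, spread within the mandibular group instead. It measured 8.60, 10.41 and 9.28 on the mandibular arrays, against 9.53, 9.15 and 9.43 on the tibial arrays. Mandibular 1 was the lowest and mandibular 2 the highest array of all 6, with the tibial values between them. The difference of 0.06 (SE 0.43) was -0.43 without mandibular 2 and 0.47 without mandibular 1 and -0.40 in the 4-array fit, and its 95% interval with all arrays ran from -0.97 to 1.09. The third gene of this kind, ITGA2, whose alpha 2 chain serves platelets and epithelia, stayed between 3.13 and 3.94, at or near background. Its 3 probe sets differed in sign, at -0.20, -0.04 and 0.17, and the first gave -0.51 in the 4-array fit.

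ITGA3, the only laminin-binding alpha chain measured here, had the smallest unadjusted p of the 36 genes. It measured 7.5, 7.89 and 7.71 on the mandibular arrays, against 7.51, 6.47 and 6.81 on the tibial arrays. Tibial 1 lay just above the lowest mandibular value, so the groups overlapped, while tibial 2 and 3 lay below all mandibular values. The difference was 0.77 (SE 0.27), or 1.71-fold, with an unadjusted p of 0.0261 in limma (adjusted p = 0.9995). A second ITGA3 probe set gave 0.67 (SE 0.22). Without mandibular 2 and tibial 3 the difference was 0.62 (SE 0.36), and in single omissions it ranged from 0.54 to 1.06.

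The chains that recognise the RGD motif of fibronectin and vitronectin all had lower mandibular means, with a median difference of -0.11 over the 4 genes and 0 at an unadjusted p under 0.05 in limma. In the 4-array fit the median was -0.33, with all 4 lower. ITGA5 then had an unadjusted p of 0.0370 in limma (adjusted p = 0.464), where 6.14% of named genes were lower at an unadjusted p under 0.05. ITGA5, the main fibronectin receptor chain, measured 10.90, 11.74 and 11.15 on the mandibular arrays, against 11.41, 11.77 and 11.07 on the tibial arrays. Its groups overlapped, with a difference of -0.15 (SE 0.27), which was -0.57 (SE 0.21) without mandibular 2 and tibial 3. ITGAV, the chain of vitronectin receptors and of the activation of latent TGFB, measured 9.90, 10.41 and 9.83 on the mandibular arrays, against 10.52, 9.91 and 9.80 on the tibial arrays. Mandibular 2 and tibial 1 stood above the other arrays. Its difference was -0.03 (SE 0.25), or -0.35 (SE 0.25) in the 4-array fit, and a second probe set gave -0.21 (SE 0.30).

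ITGA8, the nephronectin receptor chain found in mesenchyme, had 11.52, 11.89 and 11.72 on the mandibular arrays, against 11.84, 12.03 and 11.78 on the tibial arrays. The difference was -0.17 (SE 0.14), with a 95% interval from -0.51 to 0.17, so a 2-fold difference in either direction lies outside it, and it was -0.31 (SE 0.18) in the 4-array fit. ITGA2B, the platelet integrin chain, was flat at 4.97 to 5.17 over the 6 arrays. Of 4 measured megakaryocyte and platelet markers, the list mean was 4.09 to 4.44 on the mandibular arrays and 4.38 to 4.44 on the tibial arrays.

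Chains known from leukocytes did not follow a single pattern. ITGA4, the receptor chain for VCAM1 and fibronectin, measured 5.90, 4.84 and 6.44 on the mandibular arrays, against 6.47, 5.73 and 5.54 on the tibial arrays. Mandibular 2 was lowest, and the highest values, on mandibular 3 and tibial 1, were almost equal across the sites. Its difference of -0.19 (SE 0.44) was 0.25 without mandibular 2 and 0.07 in the 4-array fit. ITGAE, the chain that lets lymphocytes bind E-cadherin, measured 5.0, 4.76 and 5.01 on the mandibular arrays, against 4.73, 4.57 and 4.57 on the tibial arrays. Every mandibular value lay above every tibial one, but by as little as 4.76 against 4.73, and the difference was 0.30 (SE 0.12), with an unadjusted p of 0.0501 in limma. ITGAL, the alpha chain of the leukocyte receptor LFA-1, ranged from 6.29 to 6.93 in mandibular and from 5.89 to 7.03 in tibial cultures, a difference of 0.03 (SE 0.32), or -0.21 in the 4-array fit.

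Macrophage and monocyte markers, by contrast, differed widely among the arrays. The mean of 19 measured markers was 4.95 to 6.25 on the mandibular arrays and 5.50 to 8.57 on the tibial arrays, with 18 of 19 lower in mandibular cultures. PTPRC, the leukocyte antigen CD45, measured 3.42, 4.86 and 3.71 on the mandibular arrays, against 7.66, 6.96 and 3.91 on the tibial arrays, so it was high on tibial 1 and 2. ITGAL was highest on tibial 1, but its level of 6.93 on mandibular 1 lay above the 6.62 of tibial 2. The part of these cells in the levels of ITGAL and ITGA4 was not tested. For lymphocytes, 10 measured markers had means of 4.05 to 4.10 on the mandibular arrays and 4.08 to 4.29 on the tibial arrays.

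**Figure D2:**
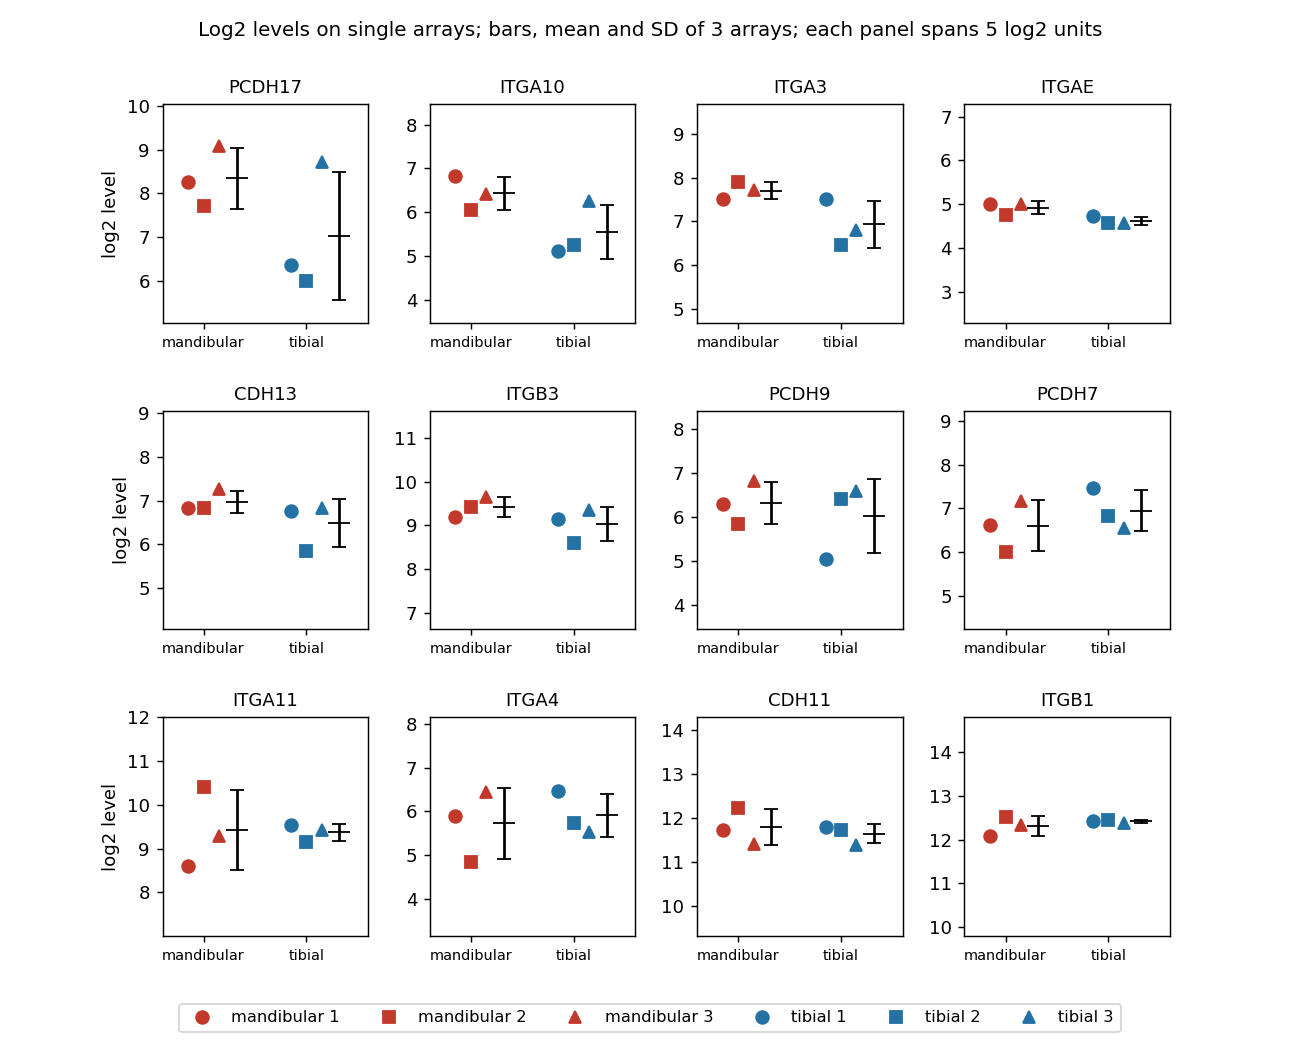
Log2 levels of 12 adhesion genes on each array (markers, by sample number), with the mean and SD of 3 arrays per site (bars). The vertical axes span the same number of units in each panel, and in every panel but ITGAE the values of the sites overlap.

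The beta 1 chain varied little between arrays. ITGB1, the partner of most matrix-binding alpha chains, measured 12.08, 12.52 and 12.34 on the mandibular arrays, against 12.42, 12.44 and 12.39 on the tibial arrays. All 6 values fell within 0.44 log2 units. The difference of -0.10 (SE 0.14) had a 95% interval from -0.44 to 0.23 and was -0.22 in the 4-array fit. ITGB3, which pairs with ITGAV in the vitronectin receptor and with ITGA2B on platelets, and is also a chain of osteoclasts, measured 9.20, 9.42 and 9.65 on the mandibular arrays, against 9.14, 8.60 and 9.36 on the tibial arrays. Tibial 2 was the low array, and the difference was 0.39 (SE 0.23). The mean of 9 measured osteoclast markers was 5.40 to 6.14 on the mandibular arrays and 5.62 to 7.68 on the tibial arrays, highest on tibial 1. Of the 9, 8 had lower mandibular means, with differences of only -0.01 for CALCR and -0.06 for TNFRSF11A, and CTSK differed by 0.02. The part of osteoclasts in the level of ITGB3 was not tested.

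Of the other beta chains, ITGB5 and ITGB8, both partners of ITGAV, were highest on tibial 1, at 8.08 and 6.93. ITGB5 ranged from 7.01 to 7.73 in mandibular and from 7.16 to 8.08 in tibial cultures, a difference of -0.29 (SE 0.28), or -0.46 in the 4-array fit. ITGB8, a chain that presents latent TGFB, ranged from 5.84 to 6.65 in mandibular and from 6.20 to 6.93 in tibial cultures, a difference of -0.17 (SE 0.28), or -0.47 in the 4-array fit. ITGB4, the hemidesmosome chain of epithelia, stayed between 4.54 and 5.14 on all arrays. ITGB6, another epithelial chain, lay under the lower quartile on every array, at 3.15 to 3.64. The mean of 9 measured epithelial markers was 4.60 to 4.91 on the mandibular arrays and 4.76 to 4.96 on the tibial arrays.

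The 2 probe sets named ITGB7, a beta chain of gut-homing lymphocytes, disagreed. The one used here measured 8.61, 8.15 and 8.59 on the mandibular arrays, against 7.83, 8.23 and 8.61 on the tibial arrays, a difference of 0.23 (SE 0.23), or 0.57 (SE 0.20) in the 4-array fit. The other stayed between 3.57 and 4.03 and differed by -0.07 (SE 0.15), so its values lay near background. ITGBL1, an integrin beta-like secreted protein gene without a receptor chain's membrane anchor, measured 7.87, 9.18 and 8.60 on the mandibular arrays, against 9.19, 7.98 and 8.80 on the tibial arrays. High and low values occurred in both groups, and the difference was -0.11 (SE 0.41), or -0.35 in the 4-array fit.

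Among cadherins, the bone and mesenchyme cadherin CDH11 overlapped between the sites. It measured 11.73, 12.22 and 11.41 on the mandibular arrays, against 11.80, 11.73 and 11.39 on the tibial arrays. Mandibular 2 was highest and the lowest value of each site was nearly the same. The difference was 0.14 (SE 0.23), with a 95% interval from -0.40 to 0.69, and its sign turned to -0.20 (SE 0.19) without mandibular 2 and tibial 3. CDH13, the cadherin without a cytoplasmic tail that is anchored by a lipid and binds adiponectin, measured 6.84, 6.82 and 7.26 on the mandibular arrays, against 6.77, 5.85 and 6.82 on the tibial arrays. Tibial 2 was the low array, and the difference of 0.49 (SE 0.28) was 0.18 without it and 0.74 in the 4-array fit.

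The other type II cadherins were low or flat. CDH22 measured 5.64, 5.95 and 6.01 on the mandibular arrays, against 6.23, 6.12 and 5.96 on the tibial arrays, a difference of -0.24 (SE 0.15), and its second probe set gave -0.09 (SE 0.12). CDH24 stayed between 6.02 and 6.25 on all arrays. CDH6, CDH7, CDH10, CDH12, CDH19 and CDH20 lay under the lower quartile on every array, as did CDH17, ITGB6 and PCDH15, which makes 9 of 36 members, or 25%, against 10.4% of named genes. In the RefSeq annotation of Sscrofa11.1, CDH10 and CDH12 are direct neighbours with CDH6 close by, and CDH7 and CDH19 are direct neighbours. Several of these genes are known from neural tissue, and CDH19 from Schwann cell precursors.

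CDH17, a cadherin of gut epithelium, met the unadjusted threshold on such low levels. It measured 3.47, 3.56 and 3.47 on the mandibular arrays, against 3.31, 3.20 and 3.24 on the tibial arrays. The groups did not overlap and the difference was 0.25 (SE 0.10), with an unadjusted p of 0.0462 in limma (adjusted p = 0.9995). All 6 values, however, lay under the lower quartiles and were treated as not separable from background. CDH23, the cadherin of hair cell tip links, ranged from 3.74 to 3.92 in mandibular and from 3.53 to 3.97 in tibial cultures. CDH2, CDH5, CDH15 and ITGB2 were not analysed here.

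The protocadherin PCDH17 had the largest difference and the widest range of all 36 genes. PCDH17, known from axon extension and synapse organisation in the brain, measured 8.25, 7.70 and 9.08 on the mandibular arrays, against 6.37, 6.0 and 8.71 on the tibial arrays. Tibial 1 and 2 lay below every other array, while tibial 3 lay inside the mandibular range. The group means were 8.35 ± 0.69 for the mandibular site and 7.03 ± 1.47 for the tibial site (SD, n = 3 each). The difference was 1.32 (SE 0.73), or 2.49-fold, with an unadjusted p of 0.118 in limma (adjusted p = 0.9995).

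Single arrays moved the PCDH17 difference, which was 2.16 without tibial 3 and 0.80 without tibial 2. Without mandibular 2 and tibial 3 it was 2.48 (SE 0.32), with an adjusted p of 0.0457 in limma, the only call among the 36 genes, where 0.708% of all probe sets and 1.16% of named genes passed. That fit holds 2 arrays per site, chosen with earlier results of these data known. On mandibular 2, PCDH17, at 7.70, lay above tibial 1 and 2, whereas both positional lists placed that array beside them.

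PCDH9, another protocadherin of neural tissue, had its lowest value on tibial 1 only. It measured 6.29, 5.84 and 6.81 on the mandibular arrays, against 5.05, 6.42 and 6.60 on the tibial arrays, a difference of 0.29 (SE 0.45) that was -0.20 without tibial 1 and 0.82 (SE 0.47) in the 4-array fit. PCDH9 lies near PCDH17 in Sscrofa11.1, with 4 protein-coding genes between them, and on tibial 2 PCDH17 was at its lowest while PCDH9 was not. PCDH7, a protocadherin first found in brain and heart, measured 6.63, 6.01 and 7.17 on the mandibular arrays, against 7.46, 6.83 and 6.56 on the tibial arrays. Its groups overlapped, with a difference of -0.35 (SE 0.34). PCDH12, an endothelial protocadherin, ranged from 5.11 to 5.26 in mandibular and from 4.91 to 5.44 in tibial cultures, and PCDH15, of the inner ear, stayed at 3.04 to 3.39. The mean of 8 measured endothelial markers was 4.94 to 5.12 on the mandibular arrays and 5.02 to 5.45 on the tibial arrays.

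**Figure D3:**
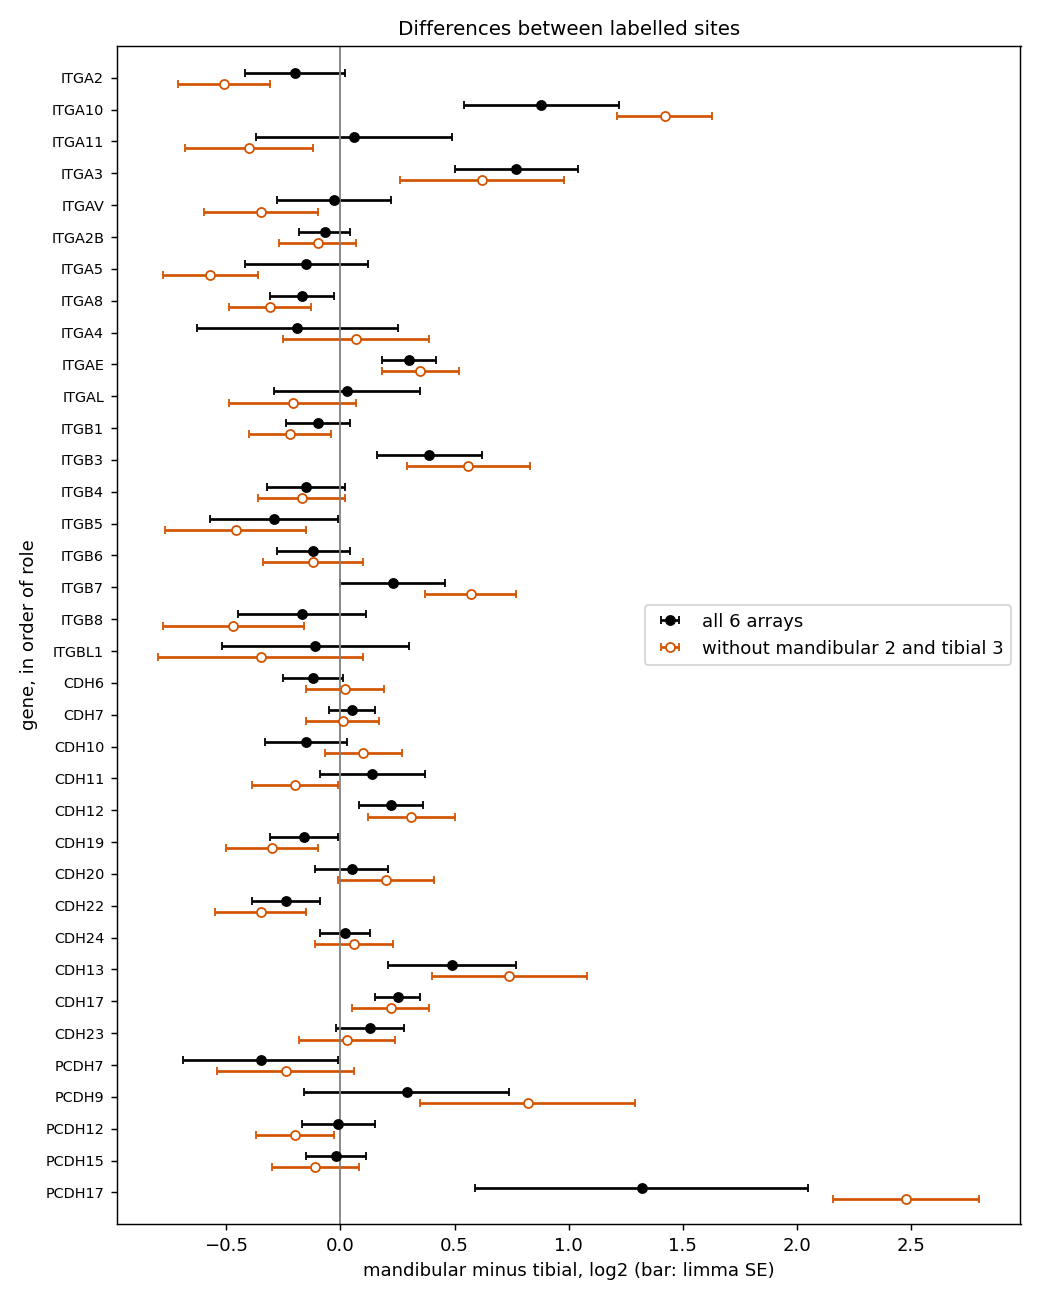
Mandibular minus tibial difference of each gene on the log2 scale with limma's SE, with all 6 arrays (filled) and without mandibular 2 and tibial 3 (open). PCDH17, ITGA10 and ITGA3 lie farthest to the right with all 6 arrays, at 1.32, 0.88 and 0.77, and PCDH17 and ITGA10 lie farther right in the 4-array fit.

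PCDH17 and ITGA10 shared their lowest arrays with the cell cycle genes, and macrophage markers were highest there. The mean of 12 measured cell cycle genes was 7.54, 7.61 and 8.46 on the mandibular arrays, against 6.04, 6.61 and 8.05 on the tibial arrays. The macrophage list gave 4.95, 6.25 and 5.01 on the mandibular arrays, against 8.57, 7.98 and 5.50 on the tibial arrays. Tibial 1 and 2 thus held the lowest values of PCDH17, ITGA10 and the cell cycle list, and the highest of the macrophage list. The other arrays were not ordered alike: ITGA10 was highest on mandibular 1, at 6.82, and the cell cycle list on mandibular 3. The craniofacial list was also low on tibial 1 and 2, at 5.23 and 5.06, and on mandibular 2, at 5.22. The part of cell cycle activity and of macrophages in the levels of PCDH17 and ITGA10 was not tested.

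**Figure D4:**
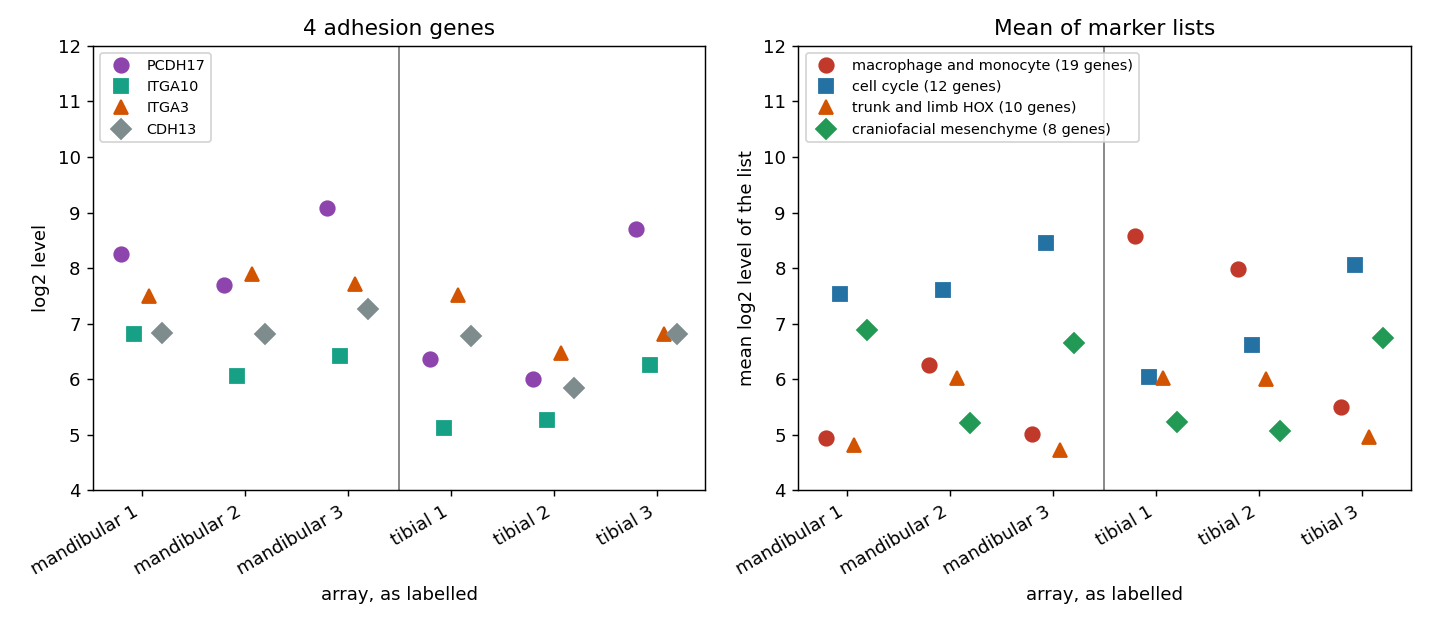
Log2 levels of 4 adhesion genes (left) and mean log2 levels of 4 marker lists (right) on each array, mandibular left of the line and tibial right. PCDH17 and ITGA10 are lowest on tibial 1 and 2, where the macrophage list is highest at 8.57 and 7.98.

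By family, the median difference was -0.10 for integrins, with 7 of 19 higher in mandibular cultures, 0.05 for cadherins, with 8 of 12 higher, and -0.01 for protocadherins, with 2 of 5 higher. Over all named genes the median was 0.01, with 51.3% higher. Without mandibular 2 and tibial 3 the medians were -0.21, 0.05 and -0.11, against 0.02 over all named genes. Then 3 members, ITGA10, ITGB7 and PCDH17, were higher at an unadjusted p under 0.05 (5.0% of named genes), and 2, ITGA2 and ITGA5, were lower (6.14%), while 9.5% of all probe sets met that threshold in either direction. The sites did not overlap for 8 members that were higher (21.7%) and 9 that were lower (18.5%), shares to be read with 2 arrays per site.

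Integrin ligands, the matrix and cell surface proteins that the receptors bind, also gave no call at the adjusted threshold in limma. Of 19 measured, 8 were higher and 11 lower in mandibular cultures, with a median of -0.09, and LAMA2 alone met an unadjusted p under 0.05, where 1.5% of named genes were lower by that rule. In the 4-array fit 5 were higher and 14 lower, with a median of -0.16. At an unadjusted p under 0.05 in limma, 1 was then higher (5.0% of named genes) and 6 were lower (6.14%). LAMA2, the laminin chain of muscle basement membrane, measured 4.98, 5.0 and 5.12 on the mandibular arrays, against 7.70, 6.11 and 6.43 on the tibial arrays. It was thus higher on all tibial arrays, tibial 3 included, with a difference of -1.71 (SE 0.39) and an unadjusted p of 0.00362 in limma (adjusted p = 0.9995). VCAM1, the ligand of the ITGA4 receptor, measured 4.28, 5.57 and 3.68 on the mandibular arrays, against 9.52, 7.55 and 4.10 on the tibial arrays, high where macrophage markers were high. Its difference was -2.55 (SE 1.31), or -4.56 (SE 0.64) in the 4-array fit, with an adjusted p of 0.0587 in limma.

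ICAM2, a ligand of the ITGAL receptor, had 4.38, 4.66 and 4.38 on the mandibular arrays, against 5.98, 5.41 and 4.40 on the tibial arrays. Its difference was -0.79 (SE 0.38), or -1.31 (SE 0.24) in the 4-array fit. POSTN, the matrix protein periostin that binds ITGAV receptors, had the widest range of the list, 7.39 log2 units. It measured 11.89, 5.6 and 9.59 on the mandibular arrays, against 7.01, 4.50 and 11.40 on the tibial arrays, so mandibular 2 lay with tibial 1 and 2, and tibial 3 with mandibular 1 and 3. Its difference was 1.39 (SE 2.12) with all arrays and 4.99 without mandibular 2 and tibial 3 (adjusted p = 0.153 in limma). Fibronectin itself, FN1, stayed between 13.20 and 13.43.

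Genes that join integrins to actin were divided in direction and several varied widely among the arrays. Levels spanned 1 log2 unit or more for 7 of 16, or 43.8%, against 14.9% of named genes, and LIMS2 spanned the most, 2.53. Of 16 measured focal adhesion genes, 8 were higher and 8 lower, with a median of 0.00, and 0 passed the adjusted threshold in limma, with 1 at an unadjusted p under 0.05, where 1.5% of named genes were lower by that rule. In the 4-array fit 5 were higher and 11 lower, with a median of -0.16. At an unadjusted p under 0.05 in limma there were then 1 higher gene, FERMT1 (5.0% of named genes), and 4 lower ones (6.14%). The gene below that threshold with all arrays, FERMT3, the kindlin of blood cells that activates integrins, measured 5.13, 5.22 and 4.96 on the mandibular arrays, against 7.12, 6.56 and 5.18 on the tibial arrays. Its difference was -1.18 (SE 0.46), or -1.80 (SE 0.24) in the 4-array fit (adjusted p = 0.0508 in limma), and the high arrays were again tibial 1 and 2. PARVG, the blood cell parvin, differed by -0.51 (SE 0.22), or -0.78 in the 4-array fit, and was highest on the same arrays, at 5.70 and 5.34.

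FERMT1, the kindlin known from epithelia, measured 6.48, 4.56 and 6.07 on the mandibular arrays, against 4.47, 4.10 and 6.50 on the tibial arrays. It followed the positional lists rather than the labels, with mandibular 2 beside tibial 1 and 2. The difference was 0.68 (SE 0.74) with all arrays and 1.99 (SE 0.23) without mandibular 2 and tibial 3. The adjusted p in limma was then 0.0362, in a fit where 1.16% of named genes passed. Those 2 arrays were left out for their levels on the positional lists of these same data, so that p is not a separate test. LIMS2, a partner of integrin-linked kinase, measured 8.26, 10.44 and 8.72 on the mandibular arrays, against 10.25, 9.30 and 7.91 on the tibial arrays. Its difference was -0.01 (SE 0.74), or -1.28 (SE 0.35) in the 4-array fit. ACTN4, an actin crosslinker, differed by 0.43 (SE 0.23), or 0.22 in the 4-array fit.

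Among catenins and other adherens junction genes, 21.4% spanned 1 log2 unit or more, against 14.9% of named genes. Of 14 measured, 10 were higher in mandibular cultures, where 51.3% of named genes were. The median was 0.12, and 0 passed the adjusted threshold or an unadjusted p under 0.05 in limma. Without mandibular 2 and tibial 3 the median was -0.04. AFDN was then lower by -0.52, with an unadjusted p of 0.0472 in limma (adjusted p = 0.513), where 6.14% of named genes were lower at an unadjusted p under 0.05. PTPRK, a receptor phosphatase at cell contacts, measured 7.76, 7.62 and 7.68 on the mandibular arrays, against 7.51, 7.31 and 7.46 on the tibial arrays, without overlap and with a difference of 0.25 (SE 0.11). CTNNA1, the catenin that binds actin, differed by 0.25 (SE 0.19), the neural catenin CTNNA2 by 0.32 (SE 0.32) and PKP4 by 0.16 (SE 0.35). In the 4-array fit these were 0.02, 0.68 and 0.50. Desmosome genes lay under the lower quartile on every array for all 4 measured, DSP, DSC1, DSC2 and PKP2.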

How the data were processed

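The deposited values are log2 levels of 27558 probe sets on 6 arrays. The submitters' processing notes name RMA, Expression Console of Affymetrix and version 3.0 of Transcriptome Analysis Console as the tools of the authors. The sources used here give neither settings nor a genome build, so no coordinates are printed. A single symbol stood beside 13157 probe sets in GEO's platform annotation, more than one beside 523, and no symbol beside 13878. Entrez numbers updated 7 symbols, and placeholder names were set aside.

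Differences were fitted with limma 3.58.1 in R 4.3.3 (lmFit, eBayes, no trend) on all probe sets, and the fit was tested on simulated data. Members and gene lists were chosen with earlier results of these data known. Members are shown by array if their range was at least 2 log2 units, if they had one of the highest means or smallest p of their family, or if named in advance. From each partner list the genes with the smallest p and widest range are named, and other members and genes were added after their values were seen. Alternatives were a replicate block, unmoderated, trend and weighted fits, median centring, a filter on mean level, array omissions and probe set means.

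Sample numbers were not shown to pair the arrays: deviations from group means correlated at -0.033, 0.212 and 0.473 for numbers 1, 2 and 3. Arrays of different numbers correlated at -0.486 to 0.361, so number 3 had the highest value of any pair and number 1 lay within that range.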

Additional observations from a re-analysis of the deposited data

How the results depend on the processing

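With the sample number as a replicate block, 0 of the adhesion genes passed the adjusted threshold and 2 were higher in mandibular cultures at an unadjusted p under 0.05, ITGA10 (SE 0.31) and PCDH17 (SE 0.33), in place of ITGA3, ITGA10 and CDH17. The block cannot move a difference in this balanced design, only its error: for PCDH17 limma's unadjusted p was 0.012 and its adjusted p 0.876. The numbers were not shown to pair the samples. Unmoderated, trend and weighted fits, median centring, the filter on mean level (which 21 of 36 members passed) and probe set means gave 0 calls over all probe sets. Single omissions gave 0 to 2 calls over all probe sets (1 without tibial 1 and 2 without tibial 3) and 0 among the members. They gave 0 to 3 members higher at an unadjusted p under 0.05, 2 to 7 higher and 0 to 3 lower without overlap, and an integrin median from -0.15 to 0.07, the highest without tibial 1. Shares over named genes were not computed for the block fit or the single omissions. Member counts in those fits thus have no background beside them and are not read as results. Without mandibular 2 and tibial 3 there were 195 calls, 1 of them a member, 2 members lower at an unadjusted p under 0.05, and 8 members higher (21.7% of named genes) and 9 lower (18.5%) without overlap. The adherens junction median was then -0.04.

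Of 480 single gene values under alternatives, for 35 named genes, 37 turned in sign and 2 passed the adjusted threshold anew. In single omissions the differences ranged from -0.07 to 0.33 for CDH11, -0.05 to 0.07 for CDH24, -0.43 to 0.47 for ITGA11, -0.55 to 0.25 for ITGA4, -0.39 to 0.03 for ITGA5, -0.21 to 0.19 for ITGAV, -0.21 to 0.02 for ITGB1 and -0.20 to 0.58 for PCDH9. They ranged from -0.14 to 0.11 for DSC1, -0.03 to 0.29 for DSC2, -0.66 to 0.54 for LIMS2, -0.18 to 0.03 for PKP2, -0.21 to 0.39 for PKP4 and -0.18 to 3.27 for POSTN. Without mandibular 2 and tibial 3, CDH11 differed by -0.20, ITGA11 by -0.40, ITGA4 by 0.07 and DSC1 by 0.13. Array weights gave 0.04 for ITGA4, 0.02 for ITGAV and 0.07 for LIMS2, and median centring gave 0.02 for DSC1 and 0.01 for LIMS2. The cause of these turns was not tested. Signals near background limit what the low cadherins can show.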
